A study of Mus musculus with 2 samples.

Results

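The genes of the cytosolic ribosome were followed in liver RNA of wild-type (WT) and CREBH knockout (KO) mice, fed or without food for 24 h. Members were taken by symbol: Rpl or Rps followed by a digit, with Rplp0, Rplp1, Rplp2 and Rpsa, and without the S6 kinase genes (Rps6k) and symbols that end in -ps and a digit. Through the RefSeq accessions of the probes, 86 of 20284 named genes on the array met the rule, 52 with large subunit symbols and 34 with small subunit symbols. They were carried by 175 probes. The rule also took in Rps19bp1, whose product binds RPS19 and is not a ribosomal protein, the transcribed pseudogene Rps4l and the retrogene Rps23rg1. Rps23 is among the 14 symbols of the gene table with no matched probe.

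Expression was measured on 2 arrays with 2 colours each, 1 for fed and 1 for fasted mice. On both, liver RNA of C57B6J wild-type mice was labelled with Cy3 and liver RNA of CREBH KO mice on a C57B6J background with Cy5. Each of the 4 channels held 1 pool of livers (fed WT, fed KO, fasted WT, fasted KO), measured once. How many mice entered a pool, and their age and sex, are not given in the sources used here. Dyes were not swapped, so in the KO over WT ratio of a single array genotype and dye cannot be told apart. With 1 pool per group there was no test, and differences are described by their size. Genes with a log2 ratio of 0.322 or more in size are called higher or lower, and 2-fold was kept as a larger size.

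An 80S ribosome joins a small subunit, which reads the messenger RNA, to a large subunit, which forms the peptide bond. Each holds ribosomal RNA and one copy of most of its proteins, apart from the acidic stalk proteins. Mammalian ribosomal protein messenger RNAs are abundant and stable and start with a C followed by further pyrimidines, the 5′ terminal oligopyrimidine (TOP) tract, through which mTORC1 and LARP1 control their translation. In liver, fasting lowers mTORC1 activity and ribosome content. CREBH, the product of Creb3l3, is a hepatocyte transcription factor of the endoplasmic reticulum membrane that acts mainly on lipid genes in fasting.

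Creb3l3 read lower in both KO pools and was still bright there: its log2 signal was 13.997 in fed WT, 13.12 in fed KO, 15.03 in fasted WT and 12.95 in fasted KO, for log2 ratios of -0.88 and -2.07. The sources do not say whether its probe lies in the deleted part. All 9 hepatocyte markers with a probe were well above background in every pool. Spots that repeat 1 probe gave the technical spread. Their log2 ratios had a median SD of 0.09 over 235 probes when fed and of 0.08 over 258 probes when fasted, which leaves out the spread between animals, pools and labelling reactions. The scanner software gave a wider error for the log2 ratio of a single member spot, with a median of 0.20 on both arrays. Of the 86 members, 83 were well above background in all 4 pools. Rpl3l, the striated muscle paralog of Rpl3, Rpl10l, the testis paralog of Rpl10, and Rpl39l, a paralog of Rpl39 in male germ cells, were not well above background in any.

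The start sites of members share sequence features that the rule on symbols did not use. RefSeq start sites (GRCm38.p6) were found for 65 of the 86 members, with 77 promoters, each from 250 bases before to 50 after the start. The longest unbroken run of C and T on the gene's strand that reached within 10 bases of the start had a median of 6 bases in members, against 4 in all 32851 promoters. Runs of 8 bases or more stood in 31 of the 77 member promoters (40.3%) and in 4605 of all 32851. The stretches from 40 bases before to 25 after the start are shown for 7 members, picked by hand as examples of long runs among genes described in the text, with that run in capitals. Others with runs of 8 or more, such as Rpl13a, Rplp2 and Rps26, are not shown.
Rpl35, chr2:39005107-39005171, minus strand: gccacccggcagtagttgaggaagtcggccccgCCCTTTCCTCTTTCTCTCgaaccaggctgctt
Rpl38, chr11:114668540-114668604, plus strand: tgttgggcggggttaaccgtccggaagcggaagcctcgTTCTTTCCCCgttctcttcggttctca
Rps6, chr4:86857343-86857407, minus strand: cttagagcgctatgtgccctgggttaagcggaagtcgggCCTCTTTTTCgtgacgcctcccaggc
Rps9, chr7:3704001-3704065, plus strand: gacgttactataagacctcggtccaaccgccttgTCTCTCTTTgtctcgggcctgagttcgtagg
Rps27, chr3:90213624-90213688, minus strand: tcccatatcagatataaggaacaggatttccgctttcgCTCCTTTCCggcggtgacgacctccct
Rpl4, chr9:64173347-64173411, plus strand: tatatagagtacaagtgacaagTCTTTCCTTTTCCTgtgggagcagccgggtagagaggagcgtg
Rpl22l1, chr3:28805468-28805532, plus strand: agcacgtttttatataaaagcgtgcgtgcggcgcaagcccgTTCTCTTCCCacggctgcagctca

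Further short motifs were searched on both strands of the 300 bases. The letters CTTTCC were in 50.6% of member promoters and 26.6% of all promoters. The ETS factor core CCGGAAG was in 35.1% against 8.86%, and the YY1 core GCCATCTT in 10.4% against 2.75%. The palindromic element TGACGTCA, to which CREB factors bind, was in 5 member promoters (6.49%, against 1.79%). The E-box CACGTG was in 10.4% against 7.15% and TATAAA in 9.09% against 13.6%. The letters TCTCGCGA were in 12 of the 77 member promoters (15.6%) against 0.995% of all, and they are in capitals in a pair of start sites whose C and T runs are short. CTTTCC and GCCATCTT each overlapped another of these motifs in 1 member promoter, and the others overlapped none. A match is a string of letters and shows no binding.
Rps28, chr17:33824538-33824602, minus strand: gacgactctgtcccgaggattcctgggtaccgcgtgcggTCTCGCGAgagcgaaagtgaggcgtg
Rpl26, chr11:68901526-68901590, plus strand: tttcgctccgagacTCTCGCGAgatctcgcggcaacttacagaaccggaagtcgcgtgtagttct

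In fed liver and after the loess fit, ribosomal protein genes stood close to all genes in KO over WT. The 83 measured members had a median log2 KO over WT ratio of 0.04, a 1.02-fold difference, from -0.38 to 0.33. Of them 50 lay above 0 (60.2%), where 53.1% of all 11377 measured genes did and the median of all was 0.01. Rpsa alone was higher by 0.322 or more, where 5.31% of all genes were, and the pseudogene Rps4l alone lower by as much, where 5.07% were. No member was 2-fold apart, against 0.554% of all genes. This rests on the loess fit. With measured spots as the centre of each array instead, the members' median was 0.54 against 0.07 for all genes. Then 76 members were higher by 0.322 or more. With all gene spots as the centre 83 were, but there the median of all genes itself lay above 0.322. The share of all genes at that size was not counted in these settings. Under loess, 5 were higher by 0.322 or more with signals not corrected for background, and with the scanner software's own signals 0 were.

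Rpsa codes for a small subunit protein that also serves as a laminin receptor. Its log2 signal was 15.56 in fed WT and 15.89 in fed KO, a ratio of 0.33. After fasting the signal was 15.03 in WT and 15.36 in KO, again a ratio of 0.33. With its brightest probe, Rpsa was thus higher in KO by the same amount on both arrays. After normalization between arrays, that probe was lower in both fasted pools than in both fed ones. The 4 probes of Rpsa did not give 1 value: their fed KO over WT ratios ran from -0.22 to 0.33, the lowest from the dimmest probe. Their fasted over fed ratios ran from -0.59 to 0.14 in WT and from -0.66 to 0.18 in KO. Next in the fed comparison stood Rpl35, a protein at the exit of the peptide tunnel (0.30), Rpl38, which in embryos favours translation of Hox messenger RNAs (0.27), Rps24, mutated in some cases of Diamond-Blackfan anaemia (0.25), and Rpl4, which lines the tunnel (0.24). At the low end were Rps4l (-0.38), Rpl9 (-0.26), the paralog Rps27l (-0.21), Rps23rg1 (-0.20) and Rps13 (-0.18).

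In fasted liver, nearly all members read higher in KO than in WT, each by a small amount. The median log2 ratio was 0.20, a 1.15-fold difference, with quartiles of 0.13 and 0.27 and a range of -0.14 to 0.47. Of 83 members 77 lay above 0 (92.8%), against 52.7% of 12262 genes, whose median was 0.01. Higher by 0.322 or more were 10 members (6.48% of all genes were), 0 were lower by as much (5.34% of all genes), and 0 were 2-fold apart (0.791%). The count higher by 0.322 or more was 80 with measured spots as the centre of each array (median 0.70, against 0.07 for all genes). With all gene spots as the centre it was 82, but there the median of all genes itself lay above 0.322. The count was 5 with scanner-processed signals or the authors' value table, 6 with the median over probes and 18 with signals not corrected for background. Under these alternatives the share of all genes at that size was not counted. Among the 10 were Rps14, Rpl22l1, Rpl23, Rpl4, Rpl12, Rps4l, Rps26, Rps12 and Rpsa. In pooled liver RNA, more RNA per cell and more cells of a type cannot be told apart. The log2 ratio exceeded the scanner software's error of its own spot in 38 members when fasted (45.8%), all higher in KO, where 13.9% of all genes were higher and 11.2% lower past their own error. When fed it did in 10, of which 7 were higher (8.43%, against 13.3% of all genes) and 3 lower (3.61%, against 10.9%).

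Rps14, a small subunit protein whose gene is lost in the human 5q- syndrome, had log2 signals of 15.82 in fed WT, 16.06 in fed KO, 15.90 in fasted WT and 16.37 in fasted KO. The fasted KO pool was the highest and the others lay within 0.24, with a KO over WT ratio of 0.47 (1.39-fold) when fasted and 0.24 when fed. Rpl23 lies on the face of the large subunit where the factor eIF6 binds. Its brightest probe read 15.11, 15.27, 15.05 and 15.48 in the same order, for ratios of 0.16 fed and 0.44 fasted. All 3 of its probes were higher in the fasted KO pool, at 0.44, 0.29 and 0.23. The dimmest of them was printed 10 times, and its spots gave -0.03 to 0.13 when fed (SD 0.05) and 0.17 to 0.28 when fasted (SD 0.03), so the spots of the arrays did not overlap.

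Rpl4 was at 0.42 with its single probe, from log2 signals of 13.28 in fasted WT and 13.70 in fasted KO. Rps26, near the exit of the messenger RNA channel, was at 0.34. Members at or below 0 in the fasted comparison were few: Rps27l (-0.14), Rps23rg1 (-0.12), Rps19bp1 (-0.11), Rpl18 (-0.07), Rpl13a (-0.05) and Rpl9 (-0.01). Of these, Rps23rg1 and Rps19bp1 are not ribosomal proteins of the canonical set, and Rps27l is a paralog. The dimmer probes of Rpl13a (0.09 and 0.16) and of Rpl9 (0.13) read above 0 in this comparison.

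The KO over WT ratio was thus larger when fasted than when fed for 77 of 83 members. Fasted minus fed, the ratio had a median of 0.18 (1.13-fold) and a range of -0.23 to 0.72, where all 11290 genes had a median of -0.01 and 48.8% above 0. Larger by 0.322 or more were 5 members (8.18% of all genes), namely Rps4l (0.72), Rpl22l1 (0.48), Rps9 (0.40), Rpl3 (0.36), which helps to shape the peptidyl transferase centre, and Rpl12 (0.34). None was that much smaller (7.31% of all genes) and none 2-fold apart (1.37%). The lowest were Rps19bp1 (-0.23), Rpl13a (-0.12), Rpl7l1 (-0.03), Rpl38 (-0.02) and Rpl36al (-0.01). A dye effect that a gene shows on both arrays cancels in this difference. This rests on the loess fit. When the median of all gene spots was the centre of each array, 16 of 83 members lay above 0, with a median of -0.08 against -0.17 for all genes.

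**Figure D1:**
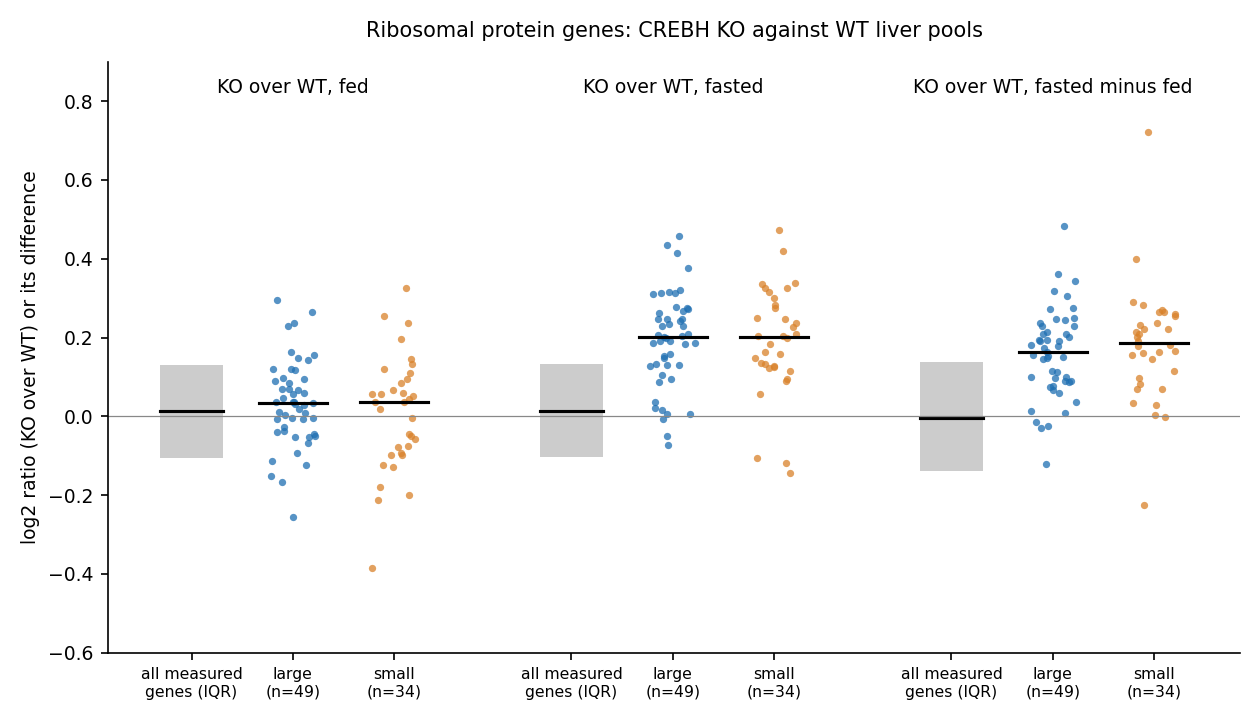
Log2 KO over WT ratio of each measured ribosomal protein gene (points) on the fed and fasted arrays, and the fasted minus the fed ratio, for 49 large and 34 small subunit symbols. Black lines are medians and grey boxes the quartile range of all measured genes. Member medians lie near 0 when fed and at 0.20 when fasted for both subunits.

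Over the 4 pools, the fasted WT pool had the lowest signal in 48 of the 83 members (57.8%, against 23.7% of 11290 genes) and the fasted KO pool the highest in 47 (56.6%, against 29.1%). The fed KO pool was highest in 24 (28.9%, against 27.4%) and lowest in 18 (21.7%, against 25.8%), the fed WT pool was highest in 11 (13.3%, against 20.5%) and the fasted WT pool in 1, Rpl9 (against 22.9%). These ranks cross arrays and rest on the loess fit and on the normalization between arrays. Without normalization between arrays, most members read higher when fasted in both genotypes. With all gene spots as the centre of each array, the members' median fasting ratio changed sign in both genotypes. The whole range over 4 pools was small, with a median of 0.32 on the log2 scale and at most 0.89 (Rps4l). Over all genes measured in 4 pools the median range was 0.36 and the widest 9.69.

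**Figure D2:**
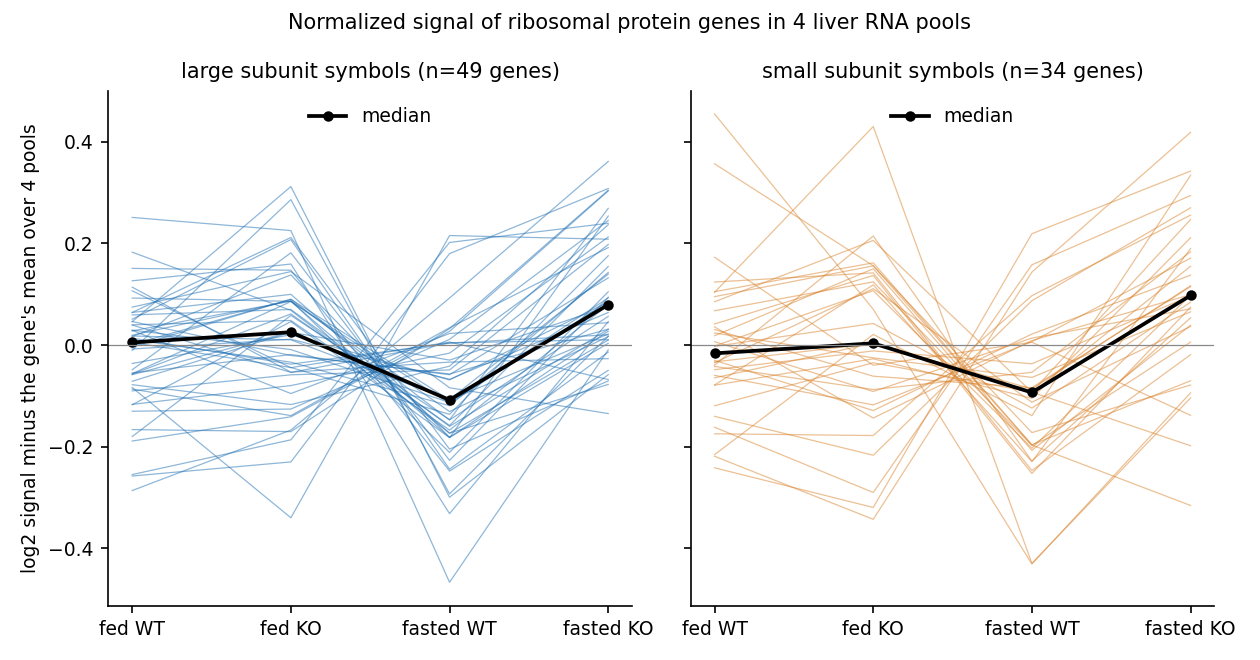
Log2 signal of each ribosomal protein gene in the 4 pools, minus its own mean over them (thin lines, 1 per gene, 49 large and 34 small subunit symbols), with the median in black. The pools are categories, and the lines only join the values of a gene. After loess and normalization between arrays, the median is lowest in fasted WT and highest in fasted KO.

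Member probes are mostly bright, and the loess curve is fitted along brightness, so the ratio was also read in bands of mean log2 signal. In all 7 bands the median fasted ratio of member probes was above that of the probes of other named genes. From 12 to 13, 18 member probes had a median of 0.21 and 600 other probes one of -0.06. From 14 to 15, 46 member probes stood at 0.19 and 209 others at -0.06, and above 15, 27 stood at 0.24 and 160 at 0.03. The few dim member probes did likewise: 7 between 8 and 10 had a median of 0.33, against 0.03 for 4440 others. For the fasted minus fed difference the member median was again the higher one in 7 bands, and for the fed ratio in 6. In the brightest band of the fasted comparison, 27 of 27 member probes and 88 of 160 other probes lay above 0.

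**Figure D3:**
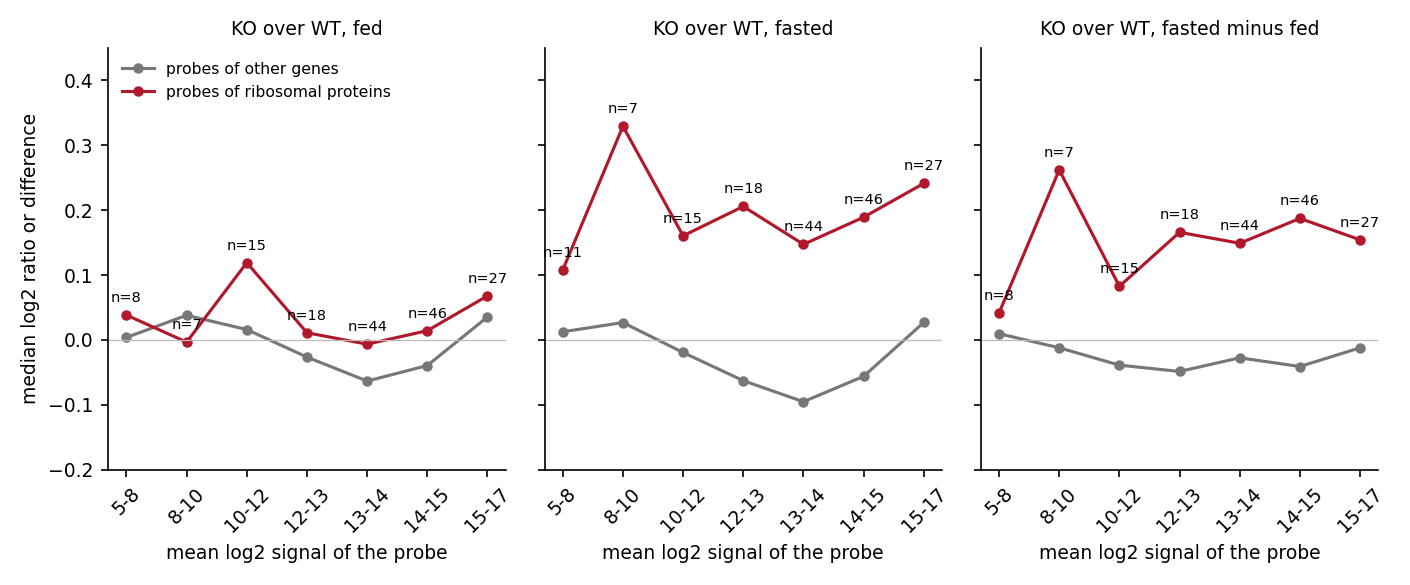
Median log2 KO over WT ratio of probes by their mean log2 signal, for ribosomal protein probes (red, with their number) and probes of all other named genes (grey), on the fed array, the fasted array, and as the fasted minus the fed ratio. The red line lies above the grey one in every band of the fasted panel.

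Probes that were not chosen as the brightest of their gene gave a second reading. Of 85 such probes measured when fasted, 81 had KO over WT ratios above 0, with a median of 0.17. When fed, 51 of 82 were above 0 (62.2%), with a median of 0.02. With the brightest probe of each gene, 52.7% of all genes were above 0 when fasted and 53.1% when fed. The share among probes of other genes that were not the brightest was not counted. The probes of a gene share its RNA pools, and are no replicates of a condition. Among 50 members with several measured probes, the SD between probes of a member was 0.10 in the fasted ratio, and the SD between members' means was 0.09. Differences of this size between single members were therefore no larger than those between probes of one member. Rps6, the target of the S6 kinases, showed how far probes can part: its 2 brighter probes had fed ratios of -0.05 and 0.04 and fasted ratios of 0.24 and 0.13, and its dim probe read -0.58 fed and 0.65 fasted.

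The large and small subunits could hardly be told from each other. The median KO over WT ratios of large and small subunit members were 0.03 and 0.04 when fed and 0.20 for both when fasted. The large minus small difference of the medians was -0.02 for fasting in WT, -0.05 for fasting in KO and -0.02 for the fasted minus fed ratio. When fasted, 46 of 49 large subunit members and 31 of 34 small subunit members had KO over WT ratios above 0. All 30 small subunit members that are no paralog, retrogene or binding protein lay above 0, from 0.06 (Rps3) to 0.47 (Rps14).

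The stalk binds the translation factors through Rplp1 and Rplp2, held by Rplp0 on Rpl12. Fasted KO over WT ratios were 0.15 for Rplp0, 0.15 for Rplp1, 0.28 for Rplp2 and 0.38 for Rpl12, against 0.06, 0.06, -0.04 and 0.03 when fed. Rplp0 is often used as a reference gene, and its signal of 15.39 in fed WT, 15.45 in fed KO, 15.36 in fasted WT and 15.52 in fasted KO spanned 0.15. Rpl12 read 14.63, 14.66, 14.17 and 14.55, so that fasted WT alone was low, and its other probe read the same way, with fed and fasted ratios of 0.02 and 0.29. Rpl5 and Rpl11 carry the 5S RNA into the large subunit and, when unassembled, bind MDM2. Their fasted ratios were 0.27 and 0.19 and their fed ratios 0.12 and -0.01.

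Among further members with a known part, Rps27a, made as a fusion with ubiquitin, was at -0.06 fed and 0.16 fasted. Rps3, at the entry of the messenger RNA channel, was at -0.10 and 0.06, and Rpl10, which joins late in large subunit maturation, at 0.04 and 0.19. Rps19, the most often mutated gene in Diamond-Blackfan anaemia, was at -0.13 and 0.14. Rpl13a, which can leave the ribosome to silence inflammatory messenger RNAs, was one of the few with the opposite order, at 0.07 fed and -0.05 fasted. Its dimmer probes kept that order, but read 0.36 and 0.34 fed and 0.09 and 0.16 fasted. With the brightest probe of each, the ratios of these members differ from 0 by less than the 0.20 that the scanner software gives as the error of 1 spot.

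Fasting spread the members more widely than genotype did, as it did all genes: the SD across members was 0.24 in WT and 0.26 in KO, against 0.13 for KO over WT on both arrays, and across all genes 0.46 and 0.49 against 0.24 and 0.26. In WT liver the median fasted over fed ratio was -0.10, with 24 of 83 above 0 (28.9%), where 51.4% of 11441 genes were above 0 and the median of all was 0.01. Higher by 0.322 or more were 5 members (16.8% of all genes), lower by as much 9 (14.7%), and 0 were 2-fold apart (4.28%). So the share past this size was below that of all genes in both directions. Lower were Rps4l (-0.89), Rpl22l1 (-0.72), Rps23rg1 (-0.55), Rpsa (-0.53), Rpl12 (-0.46), Rpl29 (-0.40), Rps15 (-0.37), Rpl39 (-0.36) and Rpl38 (-0.35). Among the higher ones were Rps3a1 and Rpl7l1 (both 0.46), Rpl5 (0.38) and Rps9 (0.36). These comparisons cross arrays, and without normalization between arrays the members' median was 0.47 in WT, where that of all genes was 0.46, and 6 of the 9 lower members turned to above 0.

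In KO liver the median fasted over fed ratio was 0.06, with 51 of 83 above 0 (61.4%, against 51.7% of 11785 genes). Higher by 0.322 or more were 14 members (18.4% of all genes) and lower 4 (16.4%), with none 2-fold apart (4.68%). Rps9, whose product lies at the entry of the messenger RNA channel, was highest: its log2 signal was 14.28 in fed WT, 14.16 in fed KO, 14.65 in fasted WT and 14.92 in fasted KO. Both fasted pools stood above both fed pools, by 0.36 in WT and 0.76 in KO. Rps3a1 (0.66), Rps19 (0.58) and Rpl9 (0.55) followed. The 4 lower members were Rpsa (-0.53), Rps23rg1 (-0.47), Rps19bp1 (-0.40) and Rpl38 (-0.37). Without normalization between arrays the median in KO was 0.63, where that of all genes was 0.45.

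Of 83 members, 24 were above 0 after fasting in both genotypes (28.9%, against 40.8% of 11290 genes) and 32 below 0 in both (38.6%, against 37.7%). Below 0 in WT and above 0 in KO were 27 (32.5%, against 10.8%), and the reverse held for 0 members and 10.6% of all genes. Both fasting comparisons use the same pair of arrays, and a shift of KO against WT is the fasted minus fed ratio over again. Probes bear on this spread too: among members with several measured probes, the SD between probes of a member was 0.18 in WT and 0.19 in KO, and that between members' means 0.21 and 0.24. In WT, 6 members had probes over 0.5 apart: Rpl22 (-0.01 and 0.89), Rps15 (-0.37 and 0.16), Rps18 (-0.09 and 0.44), Rps3a1 (0.46 and 0.998), Rps6 (-0.38 to 0.23) and Rpsa (-0.59 to 0.14). In KO there were 8, with Rpl17, Rpl22, Rpl35a, Rpl39, Rps2, Rps24, Rps6 and Rpsa. The sign depends on the probe in WT for all of these 6 but Rps3a1, and in KO for all of the 8 but Rpl22 and Rps6, as for Rps24 (-0.16 to 0.36), Rps2 (-0.23 to 0.30) and Rpsa (-0.66 to 0.18).

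**Figure D4:**
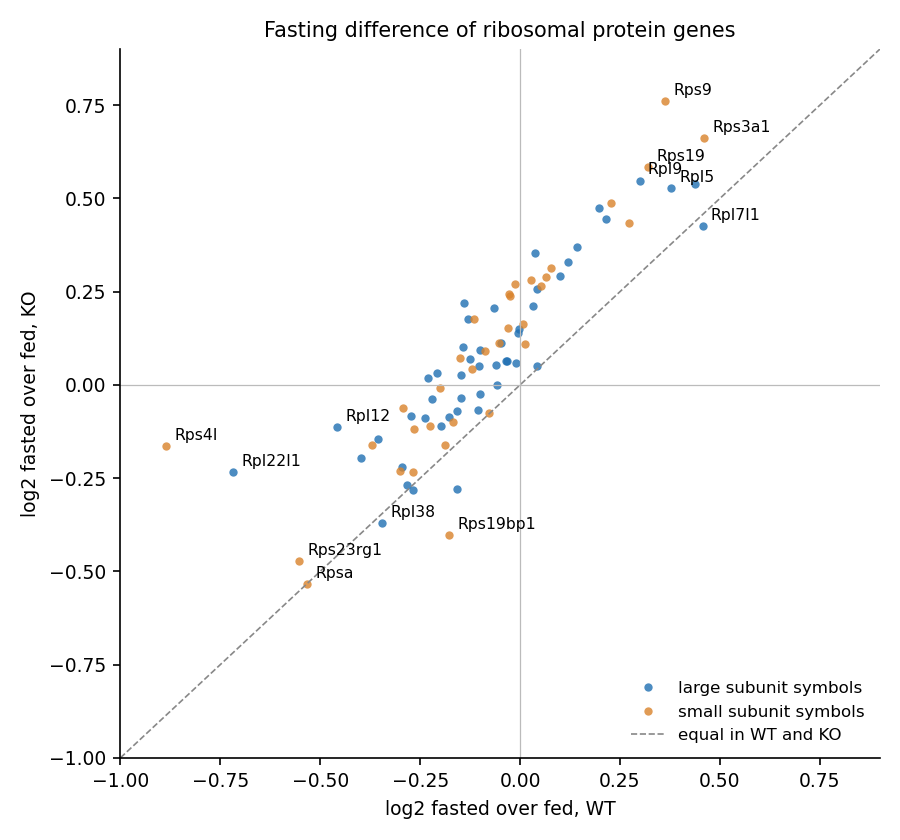
Log2 fasted over fed ratio of each measured ribosomal protein gene in WT (x axis) and KO (y axis), large subunit symbols in blue and small in orange, with the dashed line where both are equal. No gene lies above 0 in WT and below 0 in KO, and most points lie above the dashed line.

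Paralogs and other non-canonical members spread more widely than the core. Rpl22l1, the paralog of Rpl22, read 12.71 in fed WT, 12.69 in fed KO, 11.995 in fasted WT and 12.45 in fasted KO, so fasted WT stood lowest and the fed pools were alike. Rpl22 itself read 13.81, 13.68, 13.80 and 13.82 with its brighter probe. Rps27l, a p53 target in human cells, was lower in KO on both arrays (-0.21 and -0.14), and Rps27, with a start site shown above, was at -0.08 and 0.18. Rps4l read 9.65, 9.27, 8.77 and 9.10, its KO pool lower when fed and higher when fasted. Rpl36al was at 0.15 and 0.13, and Rpl7l1, a factor of pre-ribosomes whose signal was 7.65, 7.72, 8.11 and 8.15, was at 0.07 and 0.04 and higher in both fasted pools. Many ribosomal protein genes have near-identical processed pseudogenes, so what a probe reads beside its own gene is uncertain. Without the paralogs, retrogenes and Rps19bp1, the 76 other members had a fasted KO over WT median of 0.20, with 73 above 0.

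Other parts of the translation machinery did not all go the same way as the members. Further genes code for proteins of the ribosome or bound to it. Rack1, a scaffold on the small subunit, was at 0.13 fed and 0.43 fasted, and Fau, the precursor of a small subunit protein, at -0.27 and 0.09. Of 42 measured ribosome biogenesis genes, 38 had fasted KO over WT ratios above 0 (90.5%, against 52.7% of all genes, median 0.14). Higher by 0.322 or more were 7 (6.48% of all genes) and none was lower by as much (5.34%). When fed, 29 of the 42 were above 0 (69.0%, against 53.1%), with a median of 0.08. Ubtf, the RNA polymerase I factor, was at 0.61 fed and 0.52 fasted. Its probe was the brightest of that list, at 14.20 in fed WT and 15.90 in fasted KO, and its match to the gene was not checked. Ltv1, an export factor of the small subunit, was at 0.07 and 0.52. Rrs1, of large subunit assembly, was at -0.32 and 0.16.

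Mitochondrial ribosomal proteins, which belong to another ribosome, stood near all genes. Of 77 measured, 31 had fasted KO over WT ratios above 0 (40.3%, against 52.7% of all genes, median -0.02). When fed, 33 had ratios above 0 (42.9%, against 53.1%, median -0.03). By 0.322 or more, 1 was higher and 1 lower when fasted (6.48% and 5.34% of all genes). Initiation factors had medians of 0.06 on both arrays over 33 genes, with Eif4g1 (-0.35) alone past 0.322 when fasted. Cytosolic tRNA synthetases had medians of 0.11 fed and 0.08 fasted over 19 genes. Genes of mTORC1 and of TOP messenger RNA control had a fasted median of -0.08 over 23, with Rheb, the activator of mTORC1, at 0.33, Myc at 0.33 and Mtor at -0.36.

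Under fasting, the medians of other TOP genes and of initiation factors lay above those of the members, which were -0.10 in WT and 0.06 in KO. Ribosome biogenesis genes had fasting medians of 0.02 in WT and 0.21 in KO, and mitochondrial ribosomal proteins 0.01 and -0.02. The 18 other genes with TOP messenger RNAs, such as elongation factors, had medians of 0.29 in WT and 0.37 in KO. Of them 7 and 10 were higher by 0.322 or more (16.8% and 18.4% of all genes) and none lower (14.7% and 16.4%). Eif3e, a subunit of the eIF3 complex, was at 1.002 in WT and 1.08 in KO, and Hnrnpa1, a splicing factor, at 0.59 and 0.98. Of 33 initiation factors, 4 of which are also on the list of other TOP genes, 12 were higher by 0.322 or more in WT and none lower, where 16.8% of all genes were higher and 14.7% lower. In KO, 13 of 34 were higher (18.4% of all genes) and 2 lower (16.4%). Their medians were 0.19 in WT and 0.15 in KO. The tRNA synthetases had medians of -0.19 in WT, below 0 like that of the members, and -0.11 in KO. Of them 5 and 8 were lower (14.7% and 16.4% of all genes). Myc was at 0.67 in WT and 1.12 in KO.

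**Figure D5:**
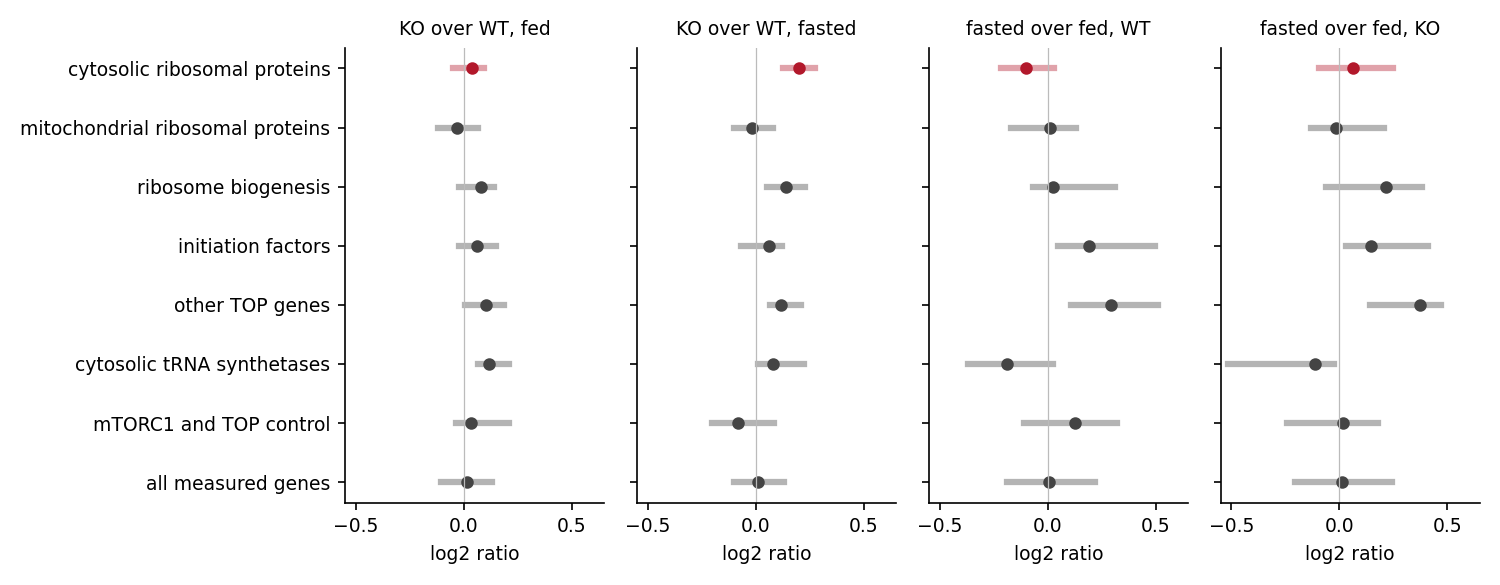
Median (points) and quartile range (bars) of the log2 ratio over the measured genes of each list, in 4 comparisons, with cytosolic ribosomal proteins in red and all measured genes at the bottom. In the KO over WT comparison of fasted liver the red median is at 0.20 and that of mitochondrial ribosomal proteins at -0.02.

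Markers of other liver cells differed between the pools as well. Of all genes, 53.1% had KO over WT ratios above 0 when fed, 52.7% when fasted and 48.8% as fasted minus fed. All 10 measured of 12 Kupffer cell markers had a fasted minus fed KO over WT ratio above 0, with a median of 0.44. Of them 7 were larger by 0.322 or more (8.18% of all genes). Their summed log2 signal was 14.18 in fed WT, 13.74 in fed KO, 14.18 in fasted WT and 14.24 in fasted KO, so it was lowest in fed KO, and Cd163 was not well above background. Endothelial markers (9 of 9 measured) had a median difference of 0.19 with 8 above 0, and a summed signal of 13.30, 13.24, 13.61 and 13.66. Stellate cell markers were above 0 in all 9 when fasted (median 0.16) and in 7 of 8 when fed (0.18), with a sum from 13.13 to 13.33 over the pools. Erythroid markers had 5 of 6 above 0 when fed (median 0.22) and 1 of 6 when fasted (median -0.03), with a sum from 16.17 to 16.52. Their median fasted minus fed difference was -0.27, with 1 of 6 above 0. Of 7 erythroid markers, 6 were well above background. Lymphocyte markers had 3 of 6 above 0 when fasted, with a sum from 11.94 to 12.46, and Cd8a, Cd79a and Ms4a1 were not well above background in any pool. Of 6 cholangiocyte markers 3 were measured, all above 0 when fasted (median 0.27), with a sum from 8.76 to 9.08, and Krt7, Epcam and Cftr were not well above background. The part of these cells in the ribosomal protein ratios was not tested.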

How the data were processed

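Arrays were read by the authors with Agilent Feature Extraction (10.10.1.1 in the headers of the files). Spot and local background intensity were deposited as medians over pixels, without normalization, and processed intensity had been background-subtracted, detrended and dye-normalized by that software, per the file headers. Cy5 over Cy3 is the direction of the deposited log10 ratio, and the deposited score beside it is the software's error for 1 spot. The authors' value table holds log2 ratios, within 0.005 of the scanner files' ratios, with a median of 0.00 on both arrays. Whether it was centred further is unknown.

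Here, median signals were corrected with normexp (offset 50), normalized by loess within arrays with control spots at weight 0 and by Aquantile between arrays, in limma 3.58.1 (R 4.3.3). The method was tested on simulated data, in which randomly drawn probes were raised and lowered in equal number. That setting cannot show how loess treats a shift of many bright genes in the same direction. With the offset, ratios of dim genes lie closer to 0. Outlier spots (216 fed, 197 fasted, none of a member) were left out, and no member spot was saturated. Probes were named by RefSeq accession through the GRCm38.p6 gene table (26762 of 55681 probes), and the brightest probe of a gene was used. A gene was measured in a pool when at least 50% of its probe's spots were well above background. The number of arrays limits the precision. The members and lists were chosen with earlier results of these data known. Genes named are the 5 highest and 5 lowest members per comparison, members past a log2 ratio of 0.322, paralogs, stalk, 5S and role genes, members whose probes were over 0.5 apart, and examples from each list. A few genes that meet this rule are not reported here. Alternatives were other normalizations, offsets, filters and probe rules, and the value table.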

Additional observations from a re-analysis of the deposited data

Results flagged for a closer look

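Rps4l, a transcribed pseudogene and one of the dimmest measured members, was past 0.322 in opposite directions on the arrays: its log2 KO over WT ratio was -0.38 when fed and 0.34 when fasted, a difference of 0.72. With 1 pool per group the difference was not tested. It has 1 probe, with 1 spot on each array, whose scanner error was 0.21 on both.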

How the results depend on the processing

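Of 648 values of named members under the alternatives, 438 moved by less than the spread used and 200 moved further. The other 10 changed sign and were 0.322 or more in size in the main processing. Sign changes of smaller values were not counted apart and lie within the 438 and 200. The member median of the fasted minus fed ratio stayed above that of all genes by 0.09 to 0.18 in every setting run. With the median of all gene spots as the centre of each array (all-gene medians 0.78 fed and 0.57 fasted), the members' KO over WT median was 1.253 fed and 1.20 fasted, with 83 above 0, 83 higher by 0.322 or more and 0 lower when fed, and 82 higher when fasted. The fasted minus fed median was then -0.081, with 16 above 0, 1 higher and 2 lower. Fasting gave a median of 0.032 in WT (47 above 0, 10 higher, 4 lower) and -0.066 in KO (32 above 0, 12 lower), and Rps4l was at 0.51 in fed KO over WT. With measured spots as the centre, medians were 0.54 fed (80 above 0, 76 higher) and 0.70 fasted (80 higher), with 3 higher in the fasted minus fed ratio. Without normalization between arrays, fasting medians were 0.47 in WT (80 above 0, 67 higher, 0 lower) and 0.63 in KO (82 above 0, 76 higher, 0 lower). The fasting medians of all genes then lay above 0.322 too. In WT, Rpl12 then read 0.12, Rpl29 0.17, Rpl38 0.23, Rpl39 0.24, Rps15 0.24 and Rpsa 0.042, and in KO, Rpl38 0.21, Rps19bp1 0.13 and Rpsa 0.041. Both scanner-processed signals and the authors' value table gave 0 higher when fed, 5 when fasted and 2 for the fasted minus fed ratio. Signals without background correction gave 5 higher when fed and 18 when fasted, an offset of 16 gave 2 when fed, and the median over probes gave 6 when fasted. Without the paralog list, an alternative chosen after seeing the data, 0 were lower when fed, 2 were lower for fasting in KO and 3 were higher in the fasted minus fed ratio. Member counts under the alternatives stand here without the share of all genes, so they do not set the members apart. The cause of the shifts between settings was not tested. No paired analysis was possible because each group was 1 pool on 1 array, and for the same reason no replicate could be left out.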
